A study of Homo sapiens with 12 samples.

Results

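The filamins and the contractile actin genes were followed as a group of 9 genes in Ewing sarcoma cells: the filamins FLNA and FLNC, the smooth muscle actin ACTA2, the actin-binding regulators TAGLN, CNN1 and CALD1, the tropomyosins TPM1 and TPM2, and the myosin regulatory light chain MYL9. They were taken by symbol and make up 9 of the 58721 genes of the count table. After the filter on low counts 21013 genes were tested, and these held 8 of the 9, with MYL9 left out. The genes were selected on results of these data, and which of the measured values led to the selection is not recorded. Their levels and fold changes are therefore given in every comparison as a description, with a standard error and no p-value. Polyadenylated RNA was sequenced from the Ewing sarcoma cell lines EW8 and TC71 (2 lines), as 4 groups of 3 libraries. Every group, controls included, consisted of cells infected with lentiviruses for a Tet-On transactivator, driven by the EF1 alpha promoter, and for c-Jun and c-Fos cDNAs behind a doxycycline-inducible promoter, and selected with geneticin and puromycin. The vehicle groups, whose genotype label reads WT, were given DMSO, and the doxycycline groups, labelled AP1_overexpression, were given 2000 ng/ml of doxycycline, in both cases for 72 h. Cells without the transgenes but with doxycycline were not analysed here, so the actions of the drug and of the transcription factors cannot be told apart.

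Filamins are long rod-shaped dimers that cross-link actin filaments into elastic networks and tie them to receptors in the membrane. FLNA is the form found in most cells, while FLNC is best known from the Z-discs of skeletal and heart muscle. In smooth muscle cells and myofibroblasts, myosin II pulls on filaments rich in the actin encoded by ACTA2. Tropomyosins lie along the filament, calponin (CNN1) and caldesmon (CALD1) restrain the myosin, transgelin (TAGLN) binds along the actin, and phosphorylation of the light chain MYL9 switches the motor on. Many genes of this apparatus are known targets of serum response factor (SRF), which works with cofactors that are held inactive by free actin. Ewing sarcoma is driven in most tumors by the fusion protein EWS-FLI1, and c-Jun and c-Fos are subunits of the AP-1 transcription factor.

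Total counts per library ran from 42860665 to 60853649, with both mates of a read pair counted. Levels are given as CPM, a count relative to the total of its library, scaled between libraries by the trimmed mean of M-values. The induced genes followed the labels, JUN going from 21.6 ± 2.61 to 474 ± 44.8 CPM in EW8 and from 20.7 ± 4.01 to 756 ± 54.6 CPM in TC71, and FOS from 36.8 ± 0.814 to 1078 ± 72.0 CPM and from 11.7 ± 0.426 to 1579.9 ± 119.7 CPM (SD, n = 3, transgene and endogenous transcripts summed). TC71 vehicle replicate 1 stood apart from the other libraries of its group, with a chi-square per gene of 62.0 and 59.4 against them, where the other 10 of the 12 replicate pairs lay between 5.32 and 10.6. Values without it are given for the 8 tested genes wherever TC71 enters, and for other genes where a call was lost. All 8 markers of Ewing sarcoma were above 6 counts (3 read pairs, called the floor below) in every group. They summed to 2856 to 2905 CPM with vehicle and 2695 to 2767 CPM with doxycycline in EW8. In TC71 they summed to 2496 to 2740 and 2341 to 2420 CPM. CD99 and NR0B1 averaged higher with doxycycline in both lines, CD99 going from 807 to 1243 and from 558 to 760 CPM. NKX2-2, STEAP1, PRKCB, CCND1, LIPI and GLI1 averaged lower in both, with CCND1 going from 1420 to 975 and from 1425 to 1114 CPM. Of 8 smooth muscle markers, 5 to 7 were above the floor in a group, their sum lay at 47.6 to 48.5 and 28.96 to 37.9 CPM with vehicle and at 132.9 to 172 and 166 to 204 CPM with doxycycline in EW8 and TC71, and most of it was the one gene SMTN. The master regulator MYOCD had no count in any library. SYNPO2 averaged 4.62 and 3.32 CPM in EW8 and 1.31 and 1.03 CPM in TC71 (vehicle, doxycycline). LMOD1, at or below 0.197 CPM, was also lower with doxycycline in both lines. The smooth muscle myosin MYH11 went from 0.390 to 0.201 CPM in EW8 and from 0.189 to 0.330 CPM in TC71. ACTG2 was lower with doxycycline in EW8 and higher in TC71. Fibroblast markers (8 to 10 of 10 above the floor) summed to 168.8 to 182 CPM with vehicle and 161.8 to 174 CPM with doxycycline in EW8. The sums in TC71 were 272 to 314 and 308 to 323 CPM, and single genes moved in opposite directions. FAP went from 2.33 to 21.2 CPM in EW8 and from 3.12 to 24.9 CPM in TC71, and COL1A1 from 26.1 to 92.8 CPM in TC71. PDGFRB went from 51.1 to 24.1 and from 59.7 to 22.3 CPM, and DCN and LUM were also lower in both lines. The sums of skeletal muscle, endothelial and epithelial markers were higher with doxycycline in both lines, and few genes carried them. Most of the skeletal muscle sum was TNNT1, at 108 and 168 CPM in EW8 and 34.7 and 50.4 CPM in TC71 (vehicle, doxycycline). MYH3 averaged lower with doxycycline in both lines, and DES higher. Most of the endothelial sum with doxycycline was PECAM1, and most of the epithelial sum was KRT8 and KRT18. Skeletal muscle markers went from between 107 and 118 CPM with vehicle to between 165 and 184 CPM in EW8 and from between 28.4 and 40.3 to between 50.7 and 53.3 CPM in TC71, with 3 to 5 of 11 above the floor and MYOD1 and MYOG at 0. Endothelial markers (1 to 5 of 5 above the floor) went from between 7.69 and 8.72 to between 45.6 and 51.0 CPM in EW8 and from between 0.0644 and 0.382 to between 3.90 and 5.19 CPM in TC71. Epithelial markers (3 to 5 of 5) went from between 9.72 and 10.2 to between 50.7 and 54.9 CPM in EW8 and from between 176 and 215 to between 227 and 241 CPM in TC71. Leukocyte markers (1 to 4 of 6) lay at 65.1 to 73.1 and 75.1 to 80.3 CPM in EW8 and at no more than 0.660 CPM in TC71. These were bulk samples, so fewer cells of a type and less RNA per cell cannot be told apart, and the part of any such cells in the results was not tested.

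Promoter sequence was looked at because many genes of this apparatus are known SRF targets. RefSeq promoter windows of 250 bases before to 50 bases after the gene start (GRCh38.p14) were found for 7 of the 9 genes, TAGLN and MYL9 being those without an entry. The CArG box of SRF (a pair of C, a run of A or T, a pair of G) was searched on both strands. So were the AP-1 site TGACTCA, the cyclic AMP element TGACGTCA and the TEAD site CATTCC. The TATA box TATAAA was searched on the strand of the gene alone. A CArG box can hold the letters of the TATA box, and otherwise none of the motifs contains another. The stretches that held a match are given on the strand of the gene, with the motif in capitals.
FLNA, CArG box, chrX:154374709-154374738, minus strand: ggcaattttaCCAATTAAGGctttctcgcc
FLNC, TEAD site, chr7:128830291-128830320, plus strand: cgggccgggcggCATTCCtgggaggccggc
ACTA2, TEAD site (as its reverse complement), chr10:88952939-88952968, minus strand: gagcagaccagtGGAATGcagtggaagaga
CALD1, TEAD site, chr7:134745413-134745442, plus strand: cagttaagtctgCATTCCgctactggattt
The CArG box of FLNA began 94 bases before the gene start, and 1.29% of all 35114 promoter windows held one. The TEAD site was in 3 of the 7 windows and in 14% of all windows. The AP-1 site was in none of the 7 and in 4.95% of all windows, and neither the cyclic AMP element (1.85%) nor the TATA box (7.33%) was found in the 7. All 7 RefSeq starts lie inside the GENCODE spans of their genes, furthest from the end for ACTA2, TPM1 and CALD1. A match is a run of letters and not an occupied site, and elements outside these windows were not searched. The CArG box was searched in its exact form alone. Forms with another base within the run of A or T were therefore missed, and a window without a match may hold one.

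Per length, the filamins were the most abundant of the 9 genes in EW8, and FLNC had the largest fold change of the group in both lines. FLNA (ENSG00000196924.15, chrX:154348524-154374638, minus strand, hg38) was at 1691, 1803 and 1726 CPM in the vehicle libraries of EW8 and at 3614, 3557 and 3083 CPM with doxycycline. In TC71 its vehicle libraries were at 1273.5, 1464 and 1434 CPM and its doxycycline libraries at 3615, 3987 and 3269 CPM. With doxycycline every library thus stood higher than any vehicle library of its line, and the levels reached in the lines overlapped. The fold of the means was 1.96 in EW8 (log2 fold change 0.97 with SE 0.07) and 2.61 in TC71 (1.38 with SE 0.07). Only the TC71 value passed the call used here, which asks for an adjusted p under 0.05 and a log2 fold change beyond 1 in size. FLNA ranked first of the 9 genes per length in all 4 groups, between 131 and 342 CPM per kb of exon.

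FLNC (ENSG00000128591.15, chr7:128830377-128859274, plus strand), the muscle filamin, was the gene in which the lines differed most. In EW8 it was already well expressed with vehicle, at 248.5, 277 and 283 CPM, and it was at 2597, 2452 and 2175 CPM with doxycycline, a fold of 8.94 (log2 fold change 3.16 with SE 0.09). In TC71 the vehicle libraries held only 6, 20 and 8 counts (0.115, 0.322 and 0.155 CPM). With doxycycline they held 21808, 24183 and 22163 counts (529, 578 and 504 CPM). The fold of the means in TC71 was 2721 (log2 fold change 11.34 with SE 0.15), a value that rests on those few vehicle counts. None of the groups overlapped, and the order was TC71 vehicle, EW8 vehicle, TC71 doxycycline, EW8 doxycycline. Under vehicle the log2 ratio of TC71 to EW8 was -10.35 for FLNC (SE 0.15), and with doxycycline the TC71 mean of 537 ± 37.5 CPM remained below the EW8 mean of 2408 ± 214 CPM (SD, n = 3).

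The balance between FLNA and FLNC differed accordingly. On the per-length scale FLNC held 15.005% ± 0.694 of the sum of these filamins in EW8 with vehicle and 44.6% ± 0.511 with doxycycline. In TC71 its share went from 0.0159% ± 0.00803 to 14.5% ± 0.420 (SD, n = 3). FLNA held the rest, 84.995% and 55.4% in EW8 and 99.98% and 85.5% in TC71. Their sum was at 193 and 582 CPM per kb in EW8 with vehicle and doxycycline, and at 131 and 400.2 CPM per kb in TC71, so FLNA remained the larger part in every group.

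**Figure D1:**
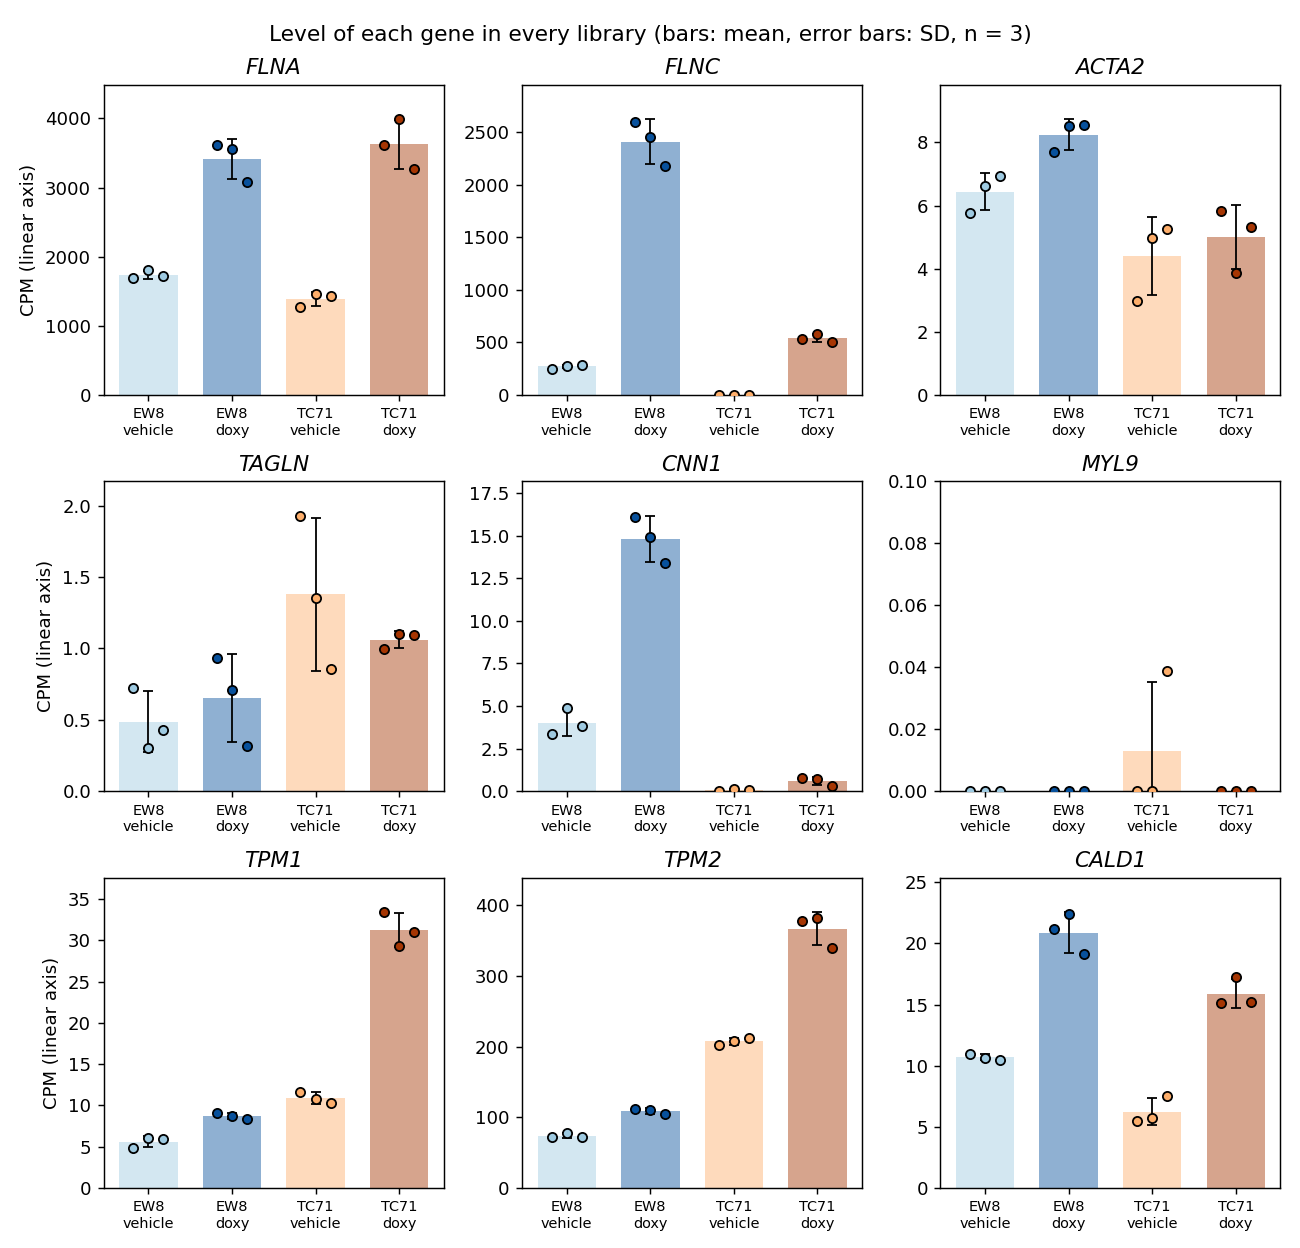
Level (CPM, linear axis) of each of the 9 genes in every library, by group (doxy, doxycycline), with points for libraries, bars for means and error bars for the SD of 3 libraries. FLNA and FLNC reached 3623 and 2408 CPM, MYL9 had 2 counts in a single TC71 vehicle library, and FLNC in TC71 went from 0.197 to 537 CPM.

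ACTA2 (ENSG00000107796.13, chr10:88935074-88991339, minus strand), the actin that defines smooth muscle and myofibroblast stress fibres, stayed low in all groups. The EW8 libraries were at 5.77, 6.63 and 6.93 CPM with vehicle and 7.70, 8.52 and 8.54 CPM with doxycycline. Those of TC71 were at 2.98, 4.98 and 5.26 CPM with vehicle and 5.82, 3.87 and 5.32 CPM with doxycycline. The EW8 groups did not overlap and the TC71 groups did. The log2 fold changes were 0.35 (SE 0.20) and 0.18 (SE 0.20), neither was called, and the second was -0.11 (SE 0.18) without TC71 vehicle replicate 1. Of the exonic bases of ACTA2, 30.1% are shared with ACTA2-AS1 (1 to 25 counts per library) and FAS (325 to 3285) on the opposite strand. The counting did not use strand, so reads in the shared bases may have been assigned to no gene. The level of ACTA2 may thus be too low. ACTA2 held between 0.0532% and 0.115% of the summed actins per length.

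The cytoplasmic actins, which make up the filaments of nonmuscle cells, held nearly all of the family. ACTB held 60.5% and 55.6% in EW8 and 34.9% and 30.6% in TC71, and ACTG1 held 39.3%, 44.3%, 65.0% and 69.3% in the same order. Both had higher levels with doxycycline without reaching the fold limit, ACTB by a log2 of 0.34 (standard error 0.05, adjusted p 9.5e-06) and 0.39 (standard error 0.05, adjusted p 1.77e-06) in EW8 and TC71, and ACTG1 by 0.63 (standard error 0.06, adjusted p 3.16e-08) and 0.67 (standard error 0.06, adjusted p 1.2e-08). The muscle actins were rare. The enteric smooth muscle actin ACTG2 was at 2.65 ± 0.240 and 2.14 ± 0.311 CPM in EW8 (log2 ratio -0.30 with SE 0.25, adjusted p 0.362) and rose in TC71 from 0.622 ± 0.191 to 3.75 ± 0.724 CPM (2.59 with SE 0.27, adjusted p 3.01e-07). The cardiac actin ACTC1 was at the floor in both vehicle groups and was called higher in both lines, at least 7.34-fold in EW8 (adjusted p 6.15e-05) and at least 3.01-fold in TC71 (adjusted p 0.00197) against the floor per library. Its doxycycline levels were 0.915 ± 0.496 and 0.328 ± 0.159 CPM. The skeletal actin ACTA1 averaged 0.233 to 0.554 CPM and was not called (adjusted p 0.377 and 0.412).

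CNN1 (ENSG00000130176.7, chr19:11538717-11550323, plus strand), the smooth muscle calponin, was low but higher with doxycycline in both lines. In EW8 it was at 3.34, 4.88 and 3.84 CPM with vehicle and at 16.1, 14.9 and 13.4 CPM with doxycycline, a fold of 3.68 (log2 fold change 1.88 with SE 0.26). The TC71 vehicle libraries held 0, 10 and 4 counts and the doxycycline libraries 32, 30 and 14 counts (0.776, 0.717 and 0.319 CPM). The groups of TC71 did not overlap, at a log2 fold change of 2.80 (SE 0.52), which ran from 2.19 to 3.87 as single libraries were left out. No groups overlapped, in the order TC71 vehicle, TC71 doxycycline, EW8 vehicle, EW8 doxycycline, so that TC71 with doxycycline stayed below EW8 with vehicle.

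TAGLN (ENSG00000149591.16, chr11:117199321-117204782, plus strand), the smooth muscle transgelin, was low but above the floor, at 14 to 101 counts per library. It lay at 0.722, 0.305 and 0.431 CPM in EW8 with vehicle and at 0.931, 0.711 and 0.320 CPM with doxycycline. In TC71 it lay at 1.93, 1.35 and 0.854 CPM with vehicle and at 0.994, 1.10 and 1.09 CPM with doxycycline. Vehicle and doxycycline overlapped in each line, at log2 fold changes of 0.44 (SE 0.46) and -0.38 (SE 0.43) that were not called. TAGLN shares 11.4% of its exonic bases with PCSK7, a gene of the opposite strand with 787 to 1286 counts per library, so reads there may likewise be lost.

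A close relative of TAGLN did change. TAGLN2, the transgelin of nonmuscle cells, rose from 68.5 ± 2.86 to 361 ± 5.59 CPM in EW8 (log2 ratio 2.40 with SE 0.06, adjusted p 1.54e-15) and from 169 ± 12.3 to 784 ± 51.5 CPM in TC71 (2.21 with SE 0.06, adjusted p 2.75e-15). Its share of the calponins and transgelins per length went from 21.0% to 61.6% in EW8 and from 51.7% to 82.8% in TC71. The share of CNN2, a calponin of nonmuscle cells, went from 50.9% to 21.7% and from 30.1% to 8.87%. CNN2 was at log2 fold changes of -0.38 (standard error 0.07, adjusted p 0.000193) and -0.24 (standard error 0.07, adjusted p 0.00971), short of the limit, and CNN3 at -0.06 (standard error 0.07, adjusted p 0.53) and 0.39 (standard error 0.07, adjusted p 7.65e-05). The neuronal TAGLN3 was called higher in both lines at low levels, at least 2.80-fold over the floor in EW8 (adjusted p 9.84e-05), where its doxycycline mean was 0.349 ± 0.0562 CPM, and from 0.110 ± 0.0788 to 1.05 ± 0.114 CPM in TC71 (adjusted p 0.000551).

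CALD1 (ENSG00000122786.19, chr7:134744252-134970728, plus strand) encodes caldesmon, which holds back myosin on the actin filament. It was at 10.9, 10.7 and 10.4 CPM in EW8 with vehicle and at 21.2, 22.4 and 19.1 CPM with doxycycline, a fold of 1.96. In TC71 it was at 5.50, 5.73 and 7.49 CPM with vehicle and at 15.1, 17.3 and 15.2 CPM with doxycycline, a fold of 2.54. The groups did not overlap in either line, and the log2 fold changes were 0.97 (SE 0.12, not called) and 1.35 (SE 0.13, called).

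The tropomyosins TPM1 and TPM2 stiffen the filament and govern which partners can bind it, and both had higher levels in TC71 than in EW8. TPM1 (ENSG00000140416.20, chr15:63042632-63071915, plus strand) lay at 4.83, 6.01 and 5.89 CPM in EW8 with vehicle and 9.02, 8.73 and 8.29 CPM with doxycycline. In TC71 the libraries were at 11.6, 10.8 and 10.3 CPM and at 33.4, 29.3 and 31.1 CPM. The groups stood in the order EW8 vehicle, EW8 doxycycline, TC71 vehicle, TC71 doxycycline with no overlap, and the log2 fold change was 0.64 (SE 0.12, not called) in EW8 and 1.52 (SE 0.11, called) in TC71. Of its exonic bases 21.4% are shared with 2 genes of the opposite strand. These had 0 counts in every library, but reads of TPM1 in the shared bases may have been assigned to no gene. Its level and its share of the tropomyosins may thus be too low.

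TPM2 (ENSG00000198467.14, chr9:35681992-35690121, minus strand) was the more abundant of the pair. In EW8 it was at 72.0, 78.0 and 72.1 CPM with vehicle and at 112, 110.0 and 104 CPM with doxycycline. In TC71 it was at 202, 208 and 212 CPM with vehicle and at 378, 382 and 339.6 CPM with doxycycline. The groups stood in the same order as for TPM1, again with no overlap, and the log2 fold changes of 0.55 (SE 0.06) and 0.82 (SE 0.06) were not called. TPM2 held 16.9% and 15.6% of the tropomyosins per length in EW8 and 31.1% and 32.6% in TC71, while TPM1 held between 0.315% and 0.702%. Most of the family was TPM3 and TPM4, of which TPM4 passed the call in TC71, from 586 ± 32.0 to 1207 ± 30.6 CPM (log2 fold change 1.04 with SE 0.05, adjusted p 2.98e-12). That call was lost in 6 of 19 alternatives, among them without TC71 vehicle replicate 1 (0.92 with SE 0.04). In EW8 TPM4 was at 0.88 (standard error 0.05, adjusted p 3.84e-11). TPM3 was at 0.37 (standard error 0.05, adjusted p 7.91e-06) and 0.32 (standard error 0.05, adjusted p 3.37e-05).

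MYL9 (ENSG00000101335.9, chr20:36541484-36551447, plus strand), the regulatory light chain of smooth muscle myosin, was not detectable at this depth. It had 0 counts in 11 of the 12 libraries and 2 counts, those of a single read pair, in TC71 vehicle replicate 3. The floor of 6 counts corresponded to between 0.0966 and 0.145 CPM, depending on the library, and this covers counting error only. In the sum of MYL9 and its nonmuscle counterparts MYL12A and MYL12B, the counterparts together held all apart from that read pair. MYL12B was at 299 ± 5.62 and 406 ± 9.95 CPM in EW8 (log2 ratio 0.44 with SE 0.05, adjusted p 1.28e-06) and at 264 ± 14.2 and 422 ± 16.4 CPM in TC71 (0.68 with SE 0.05, adjusted p 3.51e-09). MYL12A was at 0.54 (standard error 0.05, adjusted p 1.49e-07) and 0.84 (standard error 0.05, adjusted p 2.62e-10) on the log2 scale, and the essential light chain MYL6 at 0.82 (standard error 0.05, adjusted p 7.93e-11) and 0.96 (standard error 0.05, adjusted p 6.66e-12), all short of the fold limit. MYL6B was at 0.12 (standard error 0.07, adjusted p 0.2) and 0.01 (standard error 0.07, adjusted p 0.954). The cardiac light chain MYL2 was called higher in EW8, from the floor to 3.07 ± 0.718 CPM, at least 24.7-fold (adjusted p 1.62e-06). In TC71 both groups were at the floor for MYL2, although it passed the call there (adjusted p 0.0256), and no fold is given.

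**Figure D2:**
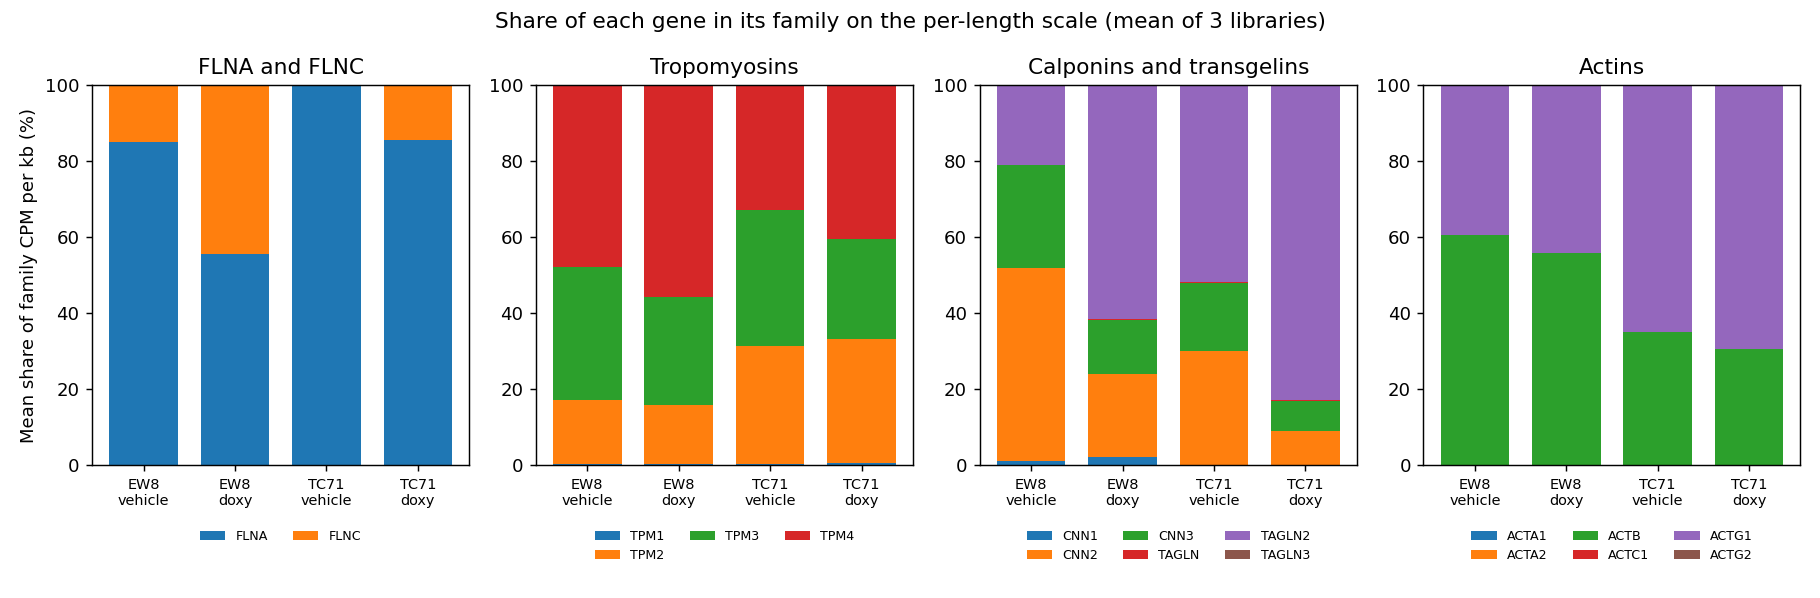
Mean share (%) of each gene in the summed CPM per kb of its family, for FLNA with FLNC, tropomyosins, calponins with transgelins, and actins, in the 4 groups (doxy, doxycycline, mean of 3 libraries). FLNC reached 44.6% of its sum with FLNA and TAGLN2 61.6% of the calponins and transgelins in EW8 with doxycycline, while ACTA2 stayed at or below 0.115% of the actins.

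Over the group, 2 of the 8 tested genes (FLNC and CNN1) were called higher in EW8, where 11.4% of all tested genes were, and 5 (FLNA, FLNC, CNN1, TPM1 and CALD1) in TC71, where 12.3% were. By the adjusted p alone, 6 of the 8 passed in EW8 and 6 in TC71, against 43.9% and 45.6% of all genes. The doxycycline libraries stood entirely above the vehicle ones for 7 of the 8 in EW8 and 6 of the 8 in TC71, which held for 26.9% and 27.6% of all genes. The median log2 fold change of the 8 was 0.80 in EW8 and 1.36 in TC71, beside -0.03 and 0 over all genes, and values ran from 0.35 to 3.16 and from -0.38 to 11.34. Without TC71 vehicle replicate 1 the same count of 5 was called in TC71, with log2 fold changes of 1.24 for FLNA, 10.996 for FLNC, 2.19 for CNN1, 1.49 for TPM1 and 1.19 for CALD1. The 3 genes that were not called were then at 0.72 (TPM2), -0.11 (ACTA2) and -0.14 (TAGLN). In EW8 the count depended on the fold limit, since FLNA and CALD1 lay close to it. Their estimates ranged from 0.95 to 1.09 and from 0.96 to 1.07 as single libraries were left out, and 4 genes were called without TC71 vehicle replicate 1.

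**Figure D3:**
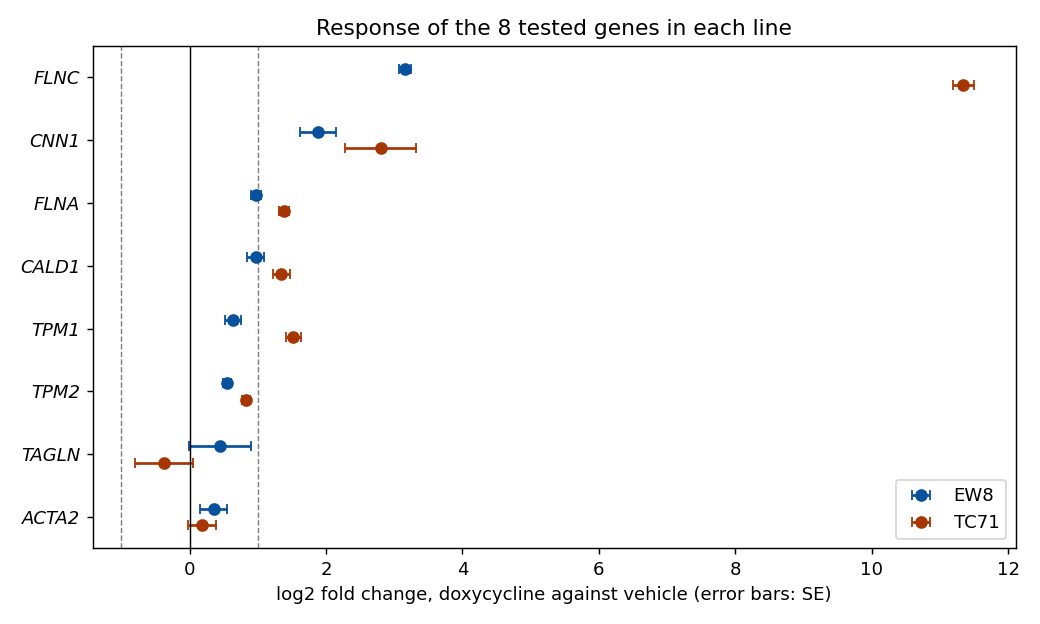
Log2 fold change of doxycycline against vehicle for the 8 tested genes in EW8 and TC71, with error bars for the SE and dashed lines at the fold limit. FLNC stands apart at 3.16 in EW8 and 11.34 in TC71, ACTA2 and TAGLN lie within 0.45 of 0 in both lines, and FLNA and CALD1 sit at the limit in EW8 and above it in TC71.

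The responses of the lines were then set against each other. FLNC was the 1 gene of the 8 whose response was called larger in TC71, by 8.18 on the log2 scale (SE 0.18), where 4.18% of all genes were called higher and 2.87% lower. TPM1 (0.89 with SE 0.16), FLNA (0.41 with SE 0.10) and TPM2 (0.27 with SE 0.08) had larger estimates in TC71 short of the fold limit. For CNN1 (0.92 with SE 0.60), CALD1 (0.38 with SE 0.18), ACTA2 (-0.17 with SE 0.28) and TAGLN (-0.82 with SE 0.63) the difference did not pass an adjusted p of 0.05, which 4 of the 8 genes and 19.3% of all genes did. Without TC71 vehicle replicate 1 the differences were 7.79 for FLNC, 0.81 for TPM1, 0.22 for FLNA and 0.12 for TPM2. Those of CNN1, CALD1, ACTA2 and TAGLN were then 0.26, 0.17, -0.51 and -0.63. The vehicle libraries of each line enter both this difference and the comparison of the lines under vehicle.

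Under vehicle, TC71 was lower than EW8 for FLNC (-10.35 with SE 0.15) and CNN1 (-5.54 with SE 0.42) and higher for TPM2 (1.49 with SE 0.06) and TAGLN (1.505 with SE 0.45) on the log2 scale. These were the 4 of 8 genes that passed the call, 2 in each direction, where 11.6% of all genes were called higher and 18.9% lower in TC71. All 8 passed the adjusted p alone, as 61.7% of all genes did. FLNA (-0.32 with SE 0.07), ACTA2 (-0.55 with SE 0.20) and CALD1 (-0.77 with SE 0.13) had lower and TPM1 (0.96 with SE 0.12) had higher estimates in TC71 within the fold limit. Without TC71 vehicle replicate 1 the estimates for FLNA, ACTA2 and CALD1 were smaller in size, at -0.15 (SE 0.06), -0.22 (SE 0.17) and -0.58 (SE 0.13). FLNC, CNN1, TPM2 and TAGLN were then at -9.97, -4.90, 1.62 and 1.30, and TPM1 at 1.02, past the fold limit. The group was thus not uniformly lower or higher in either line.

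The genes whose pattern over the 12 libraries was most like that of a gene of the group were found by the root mean square difference of centred log2 CPM, among 14922 genes with a mean of at least 1 CPM. For FLNA this was CTTNBP2NL (0.0919), for TPM2 PLAGL1 (0.112), for TPM1 ITGB1P1 (0.115) and for ACTA2 CAMKK1 (0.143). CNN1 was nearest to FAM167A (0.475) and FLNC to AOX1 (1.32). FLNC thus had no close match by this measure, which is not scaled for the size of a gene's changes. Its wide range rests on the TC71 vehicle libraries of 6 to 20 counts. TAGLN and MYL9 were too low to be ranked. Within the group FLNA and CALD1 were nearest to each other (0.254), as were TPM1 and TPM2 (0.288), while the nearest to FLNC was CNN1 at 3.15.

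Genes around the contractile system were taken from 6 lists, with the 9 genes left out. All 109 listed genes were in the table and 97 were tested. Of these, 30 rose and 1 fell in EW8 and 42 rose and none fell in TC71 (edgeR quasi-likelihood test), where 11.4% and 12.3% of all genes were called higher and 3.38% and 3.67% lower. At an unadjusted p under 0.05 alone, 9 had lower estimates in EW8 and 6 in TC71, and DESeq2 also called none lower in TC71. The median log2 fold change was 0.55 and 0.84. Without TC71 vehicle replicate 1, 35 rose in TC71. The response was called larger in TC71 for 9 of the 97 (9.28%) and smaller for 3 (3.09%), where 4.18% and 2.87% of all genes were. Under vehicle 13 (13.4%) were higher and 21 (21.6%) lower in TC71 than in EW8, close to the 11.6% and 18.9% of all genes. The close relatives described above (16 tested) had 4 genes called higher in EW8 and 6 in TC71. Some genes stand in more than 1 list, and the lists were written with earlier results of these data known.

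Among 18 genes of myosin II and its switches, 5 rose in EW8 and 6 in TC71. MYH9, the main nonmuscle myosin II heavy chain, rose from 429 ± 3.10 to 1866 ± 133 CPM in EW8 (log2 ratio 2.12 with SE 0.06, adjusted p 5.97e-15) and from 601 ± 32.6 to 2390 ± 176 CPM in TC71 (1.99 with SE 0.06, adjusted p 1.1e-14). RHOC, a small GTPase that promotes contraction, rose by 2.55 (standard error 0.08, adjusted p 2.82e-14) and 2.16 (standard error 0.08, adjusted p 1.8e-13). MYLK, the kinase of the myosin light chain, rose by 1.78 (standard error 0.14, adjusted p 6.88e-09) and 1.69 (standard error 0.14, adjusted p 1.39e-08). The other nonmuscle heavy chains did not pass the call, with MYH10 going from 282 ± 8.21 to 176 ± 2.94 CPM in EW8 (-0.68 with SE 0.06, adjusted p 5.85e-08) and from 134 ± 12.5 to 104 ± 4.70 CPM in TC71 (-0.37 with SE 0.06, adjusted p 0.000104), and MYH14 at 0.66 (standard error 0.27, adjusted p 0.0577) and -0.22 (standard error 0.32, adjusted p 0.624). PPP1R14A, an inhibitor of myosin phosphatase, passed the call in TC71 with means of 0.0107 and 0.0948 CPM (adjusted p 0.0489), too low for a fold to be given. That call was lost in 12 of 17 alternatives, among them without TC71 vehicle replicate 1 (adjusted p 0.106).

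Of 15 tested genes of the smooth muscle contractile cytoskeleton, 5 rose and 1 (HSPB6, a small heat shock protein, -1.26 with SE 0.38, adjusted p 0.0118) fell in EW8, and 8 rose in TC71. Smoothelin (SMTN), an actin-binding protein, rose from 40.0 ± 0.476 to 145.7 ± 19.7 CPM in EW8 (1.87 with SE 0.10, adjusted p 5.06e-11) and from 30.6 ± 4.01 to 184 ± 20.2 CPM in TC71 (2.59 with SE 0.11, adjusted p 5.21e-13). PALLD, a scaffold of actin bundles, rose by 1.59 (standard error 0.08, adjusted p 2.2e-11) and 1.96 (standard error 0.08, adjusted p 9.7e-13). Desmin (DES), the muscle intermediate filament, rose at low levels, from 0.306 ± 0.110 to 4.45 ± 1.09 CPM in EW8 (3.83 with SE 0.52, adjusted p 1.55e-05) and at least 4.08-fold over the floor in TC71 (adjusted p 8.57e-05).

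All 26 genes of the actin-binding list were tested, of which 8 rose in EW8 and 12 in TC71. PDLIM5, a PDZ-LIM protein of actin fibres, rose by 2.24 (standard error 0.06, adjusted p 1.79e-15) in EW8 and 1.64 (standard error 0.06, adjusted p 8.04e-14) in TC71. PDLIM1 rose by 2.71 (standard error 0.24, adjusted p 2.61e-08) and 1.48 (standard error 0.15, adjusted p 2.48e-07). The filament-capping protein CAPG rose by 2.19 (standard error 0.22, adjusted p 2.42e-07) and 1.12 (standard error 0.14, adjusted p 3.69e-06), the second being 0.88 and under the limit without TC71 vehicle replicate 1. Gelsolin (GSN), which severs filaments, rose by 1.12 (standard error 0.17, adjusted p 3.34e-05) and 2.92 (standard error 0.19, adjusted p 4.08e-10). TMSB10, an abundant gene whose product binds free actin, rose from 580.5 ± 43.1 to 1706 ± 63.5 CPM in EW8 (1.56 with SE 0.07, adjusted p 3.49e-12) and from 498 ± 52.3 to 1879 ± 109 CPM in TC71 (1.92 with SE 0.07, adjusted p 1.67e-13). TMOD2, a cap of filament ends, rose in TC71 by 2.01 (standard error 0.21, adjusted p 2.26e-07).

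In the SRF pathway, 3 of 10 tested genes rose in EW8 and 4 in TC71, and SRF itself did not pass the call in either line. SRF was at 68.5 ± 2.02 and 79.0 ± 4.12 CPM in EW8 (0.21 with SE 0.07, adjusted p 0.023) and at 104 ± 7.07 and 114 ± 9.52 CPM in TC71 (0.13 with SE 0.07, adjusted p 0.13). Its cofactor MRTFA was at 0.55 (standard error 0.08, adjusted p 1.5e-05) in EW8 and at 1.01 (standard error 0.08, adjusted p 5.77e-09) in TC71, just past the limit. The call in TC71 was lost in 12 of 19 alternatives, among them without TC71 vehicle replicate 1 (0.90). MRTFB was at -0.21 (standard error 0.09, adjusted p 0.085) and 0.46 (standard error 0.09, adjusted p 0.000424). FHL2, a LIM protein that binds SRF, had the largest change of the list in EW8, from 9.32 ± 1.54 to 296 ± 8.46 CPM (4.99 with SE 0.09, adjusted p 1.3e-17), and rose from 1.37 ± 0.105 to 83.4 ± 2.44 CPM in TC71 (5.93 with SE 0.11, adjusted p 8.72e-18). MICAL2, an enzyme that oxidises actin in the nucleus, rose by 3.38 (standard error 0.30, adjusted p 3.89e-08) and 6.27 (standard error 0.29, adjusted p 3.3e-12). ELK3, an ETS cofactor of SRF, rose by 2.26 (standard error 0.10, adjusted p 9.72e-13) and 1.35 (standard error 0.09, adjusted p 9.68e-10).

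Among the 15 tested genes of the list of filamin partners, 5 rose in EW8 and 7 in TC71. Not every gene of the list is known to bind a filamin itself, and binding was not tested. The chaperone HSPB8, which acts in the disposal of damaged filamin, rose from 6.61 ± 0.747 to 17.9 ± 1.15 CPM in EW8 (1.44 with SE 0.16, adjusted p 2.32e-06) and at least 8.11-fold over the floor in TC71 (adjusted p 1.19e-08), where its doxycycline mean was 0.885 ± 0.242 CPM. FILIP1L, a relative of the filamin-binding protein FILIP1, rose in TC71 from 0.137 ± 0.104 to 11.4 ± 0.168 CPM (6.30 with SE 0.44, adjusted p 1.08e-09) and was at the floor in both EW8 groups. FILIP1 rose in EW8 from 0.132 ± 0.0416 to 1.00 ± 0.325 CPM (2.90 with SE 0.76, adjusted p 0.00418) and was at the floor in TC71. Dysferlin (DYSF), a membrane repair protein of muscle, rose by 3.04 (standard error 0.51, adjusted p 8.03e-05) and 1.93 (standard error 0.49, adjusted p 0.00317) at levels up to 1.25 CPM. ANKRD1 rose at least 5.99-fold over the floor in EW8 (adjusted p 0.000287) and was at the floor in both groups of TC71, although it passed the call there (adjusted p 0.0324). The TC71 call was lost in 8 of 17 alternatives, among them with TC71 vehicle replicate 1 left out (adjusted p 0.0581).

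**Figure D4:**
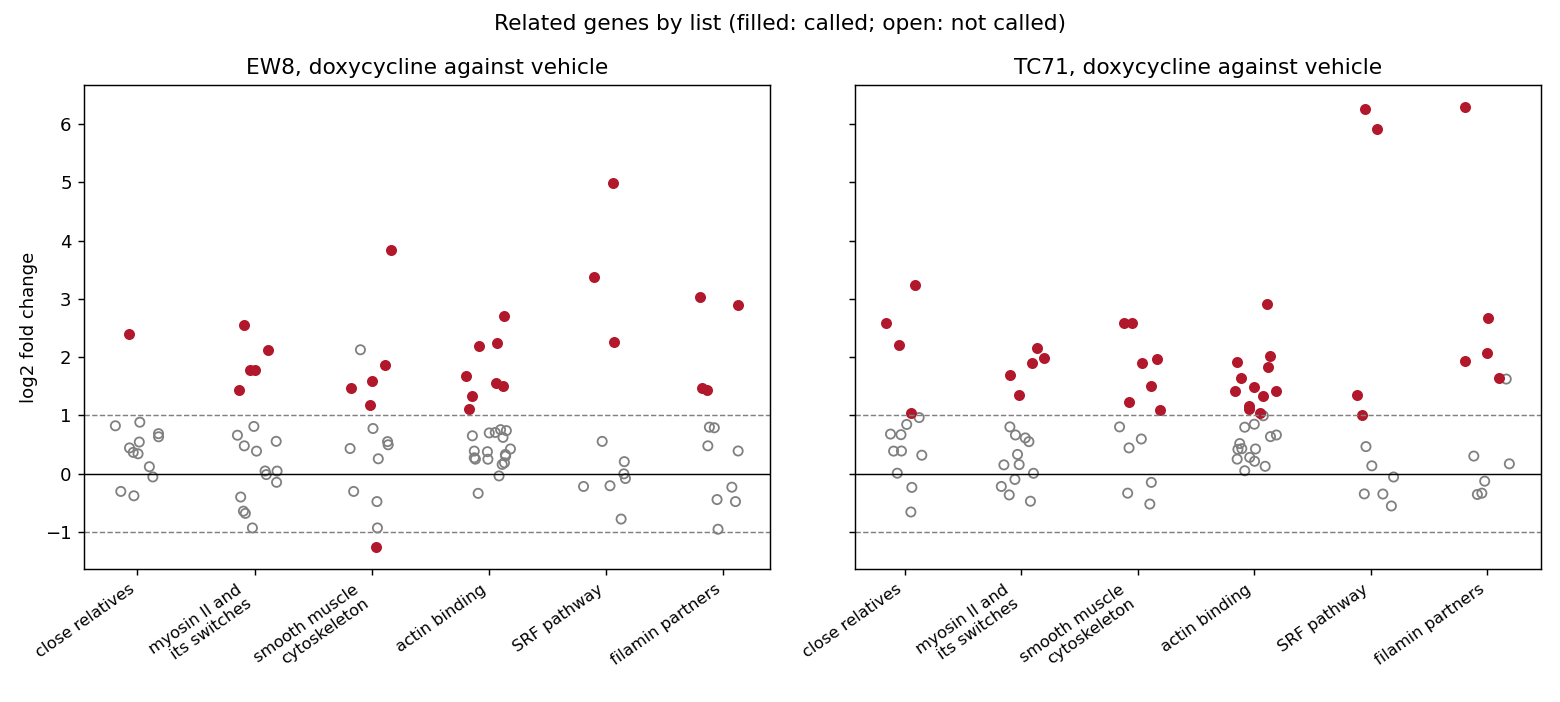
Log2 fold change of doxycycline against vehicle for the tested genes of the 6 lists in EW8 and TC71, with filled points for genes that passed the call and dashed lines at the fold limit, and without genes that had a group at the floor. Most called points lie above 1, with FHL2 at 4.99 in EW8 and MICAL2 and FILIP1L at 6.27 and 6.30 in TC71.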

How the data were processed

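The data were RNA-seq libraries of poly(A) RNA from EW8 and TC71 cells, 4 groups of 3, grouped by title and treatment label. The authors checked reads with FastQC, aligned them to hg38 with STAR and counted them over GENCODE 29 genes with featureCounts 2.0.1. What they deposited were raw counts for each gene. The header of the count table shows that pairs, strand, multi-mapped reads and overlapping genes were left at their default settings. Each mate was thus counted (67.3% to 69.8% of counts from 20 to 199 were even). By default a read that overlaps exons of 2 genes is assigned to neither, so opposite-strand overlaps are uncertain, as are close paralogs. Symbols were matched by identifier for 58207 of 58721 genes.

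The counts were filtered with filterByExpr, scaled by TMM and tested in 1 quasi-likelihood fit of the 4 groups (edgeR 4.0.16, R 4.3.3), with Benjamini-Hochberg adjustment over 21013 genes. Calls required an adjusted p under 0.05 and a log2 fold change beyond 1 in size. DESeq2, the tool of the study, is an alternative here (version 1.42.0). The labels do not say whether replicates were separate cultures, so p-values measure the spread between these samples, which may be technical. CPM per kb uses the exon length in the deposited table. The fit was tested on simulated data. Figures were drawn with matplotlib 3.10.9.

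The 9 genes and all lists were chosen with earlier results of these data known. Named genes follow a rule: the 9 genes, JUN and FOS, all tested close relatives, the 3 called genes with the largest change per list and line, SRF, MRTFA and MRTFB, the nearest gene to each of the 9, and genes that share exonic bases with them. Some items that this rule and the lists would take in are not reported here. HSPB6, MYH10, MYH11, MYH14, MYOCD, MYOD1, MYOG and the other single genes of the marker lists were named after their values were seen. The lists were close relatives, myosin II and its switches, smooth muscle cytoskeleton, actin binding, SRF pathway and filamin partners, and markers of Ewing sarcoma, smooth muscle, fibroblast, skeletal muscle, epithelial, leukocyte and endothelial cells. The alternatives were other scaling (median-ratio size factors, library size), other count filters, a replicate block, each line fitted alone, DESeq2, no fold limit, and leaving out each library.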

Additional observations from a re-analysis of the deposited data

Results flagged for a closer look

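The response to doxycycline differed between the lines, by the interaction in the fit, for 7 of the genes named here. Over all tested genes, 4.18% were called higher and 2.87% lower for this difference. GSN, TMOD2, MICAL2, PDLIM1 and CAPG were named for a large change in a line of these same data. That choice favours a difference between the lines, so their adjusted p values are no separate support for it. For FLNC the response in TC71 exceeded that in EW8 by a log2 of 8.18 (SE 0.18), given without a p because the gene was selected with these results known, and the TC71 vehicle libraries held 6 to 20 counts. The response was also larger in TC71 for ACTG2 (2.90, SE 0.37, adjusted p 1.52e-05), GSN (1.80, SE 0.25, adjusted p 4.19e-05), TMOD2 (1.31, SE 0.31, adjusted p 0.00594) and MICAL2 (2.88, SE 0.46, adjusted p 0.000168). It was smaller in TC71 for PDLIM1 (-1.23, SE 0.29, adjusted p 0.00513) and CAPG (-1.07, SE 0.27, adjusted p 0.00881), whose levels under vehicle were higher in TC71 by log2 values of 5.06 and 5.49. The CAPG difference was -0.80 without EW8 vehicle replicate 1. HSPB8 and FILIP1L also passed, but each has a group at the floor, so no size is given. Groups of 3 libraries were not tested for single deviating values.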

How the results depend on the processing

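Of 584 recomputed log2 fold changes of the 8 tested genes, 37 moved by more than the spread between replicates and no called value changed sign. The uncalled value of ACTA2 in TC71 did, from 0.18 to -0.11 without TC71 vehicle replicate 1. Of 2909 for the named genes of the lists, 49 lost the call, 10 gained it and no called value changed sign. Without the fold limit the number of the 8 genes called was 6 in EW8, 4 for the difference between lines and 8 for the lines under vehicle, and of the listed genes 72 (64 higher, 8 lower) in EW8, 72 (66 higher, 6 lower) in TC71, 43 for the difference and 74 for the lines under vehicle. With each line fitted alone 4 of the 8 were called in EW8. Asking for 10 or more counts in each library left 3 called in TC71 and 0 for the difference, since FLNC and CNN1 were then not tested. Leaving out single libraries gave 2 to 4 called in EW8. FLNA crossed the limit there without EW8 vehicle replicate 2 or 3, EW8 doxycycline replicate 3, or TC71 vehicle replicate 1 or 3 (0.95 to 1.09), and CALD1 without EW8 doxycycline replicate 1 or 3, or TC71 vehicle replicate 1 or 3 (0.96 to 1.07). TPM1 under vehicle, at 0.96, crossed it in 7 of 18 alternatives (0.87 to 1.05 over the left-out libraries). Same-numbered libraries did not deviate together (correlations from -0.0285 to 0.00757), so the numbers share only a label. With a replicate block 2 of the 8 were called in EW8 and 5 in TC71, as without it, and of the listed genes 31 and 40 against 31 and 42. Depth limits MYL9, TAGLN and the TC71 vehicle values of FLNC and CNN1.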
